A study of Mus musculus with 8 samples.

Results

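Pck2 encodes mitochondrial phosphoenolpyruvate carboxykinase, the enzyme that turns oxaloacetate into phosphoenolpyruvate. It was set here beside 9 genes of the amino acid stress response, Atf4, Atf5, Ddit3, Trib3, Asns, Psat1, Phgdh, Slc7a11 and Slc3a2. These were 10 of the 12393 genes that a probe set names alone, and every probe set whose platform annotation names one of them was taken. A probe set is the group of short sequences on the array that reads 1 transcript. Of 22626 probe sets without controls, 21 named a listed gene, and 19 of them named it alone. The other 2 named Phgdh with a second gene and were not used by name. A test was run on the 16 of the 19 whose highest signal reached the median of all signals (59.1), and these covered 9 of the 10 genes. The 3 left out were both Trib3 probe sets and 1 of 4 for Phgdh. Pck2 was chosen by its signal on the wild-type arrays of these same data, which was lower with calcitriol than without it. Its values in that contrast, and those of the genes set beside it there, are therefore a description without a test.

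In the amino acid stress response, kinases that sense a lack of amino acids or other stress phosphorylate the translation factor eIF2alpha. General protein synthesis falls while translation of the transcription factor ATF4 rises. ATF4 then drives genes for amino acid synthesis, uptake and tRNA charging, and PCK2 is a known ATF4 target in other cell types. In macrophages, IFN-gamma activation is known to change the use of tryptophan and arginine.

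The cells were mouse bone marrow derived macrophages, cultured from bone marrow for 7 days in medium with M-CSF, a macrophage growth factor (50 ng/ml). Each of 8 conditions was measured on 1 array. The Vdr-/- conditions, in which the vitamin D receptor gene is knocked out, were IFN-gamma with calcitriol, IFN-gamma, calcitriol, and untreated. The wild-type conditions were the same 4. The label of the untreated knockout array alone names the allele (Vdr tm1 Rge). Calcitriol is 1alpha,25(OH)2D3, the hormonally active form of vitamin D, and IFN-gamma is the cytokine of classical macrophage activation. Treated cells were cultured for 24 to 48 hours. The sources used here do not give the strain, age or number of mice, or the doses of IFN-gamma and calcitriol. No condition had a replicate, so each test takes its spread from the disagreement between pairs of arrays that repeat a contrast. The spread between mice or cultures was not measured, and a difference between genotypes cannot be told apart from one between the animals or dishes.

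The 8 macrophage markers were above the floor on all 8 arrays, with summed signals of 35508.2 to 59143.3. Summed signals were 223.1 to 449.0 for 8 neutrophil markers, 102.3 to 575.3 for 6 stromal markers, 77.5 to 298.1 for 6 measured lymphocyte markers and 67.0 to 184.8 for 4 dendritic cell markers. The floor is a signal of 15.5, the 25th percentile of all signals, and lower signals were set to it before log2 was taken. The 2 Vdr probe sets gave 90.3 and 63.2 on the array labelled Vdr-/- untreated, against 6.7 and 5.3 on the array labelled wild-type untreated, which goes against these labels. On the other wild-type arrays they gave 51.5 to 226.7 and 82.9 to 385.9. On the other Vdr-/- arrays they gave 2.6 to 45.6 and 2.5 to 23.6. The sources used here do not say whether these probe sets lie in the deleted part. The signal ratio of 3' to 5' Gapdh probe sets, which rises as RNA is truncated, was 4.82 on the array labelled Vdr-/- untreated and 7.67 on the wild-type calcitriol array. On the other 6 arrays the ratio was between 0.853 and 3.06. Fewer cells of a type and less RNA per cell cannot be told apart in such bulk samples.

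The promoters of the genes set beside Pck2 were searched for TGATGNAA, the letters of the C/EBP-ATF response element that ATF4 is known to bind. Both strands were read from 250 bases before to 50 bases after the start in RefSeq windows of build GRCm38.p6. The letters were found in 4 of the 10 genes (40%), Pck2, Asns, Slc7a11 and Trib3, against 1219 of 27025 genes with a window (4.51%). The members were listed as genes of a response that ATF4 drives, so a share above that of all genes follows from this choice. It is no result of these arrays. The 4 stretches are shown because Pck2 shares these letters with some of the other members. Capitals mark the match, and each stretch is read along the gene's own strand.
Pck2, chr14:55540016-55540265, + strand, bases 250 to 1 before the start: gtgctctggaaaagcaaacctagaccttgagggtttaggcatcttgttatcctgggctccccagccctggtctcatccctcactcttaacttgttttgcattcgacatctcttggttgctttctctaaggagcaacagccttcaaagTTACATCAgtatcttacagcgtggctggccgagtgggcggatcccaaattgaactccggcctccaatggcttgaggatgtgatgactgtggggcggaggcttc
Asns, chr6:7693210-7693289, - strand, bases 80 to 1 before the start: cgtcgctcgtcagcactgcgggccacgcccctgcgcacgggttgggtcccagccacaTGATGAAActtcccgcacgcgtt
Slc7a11, chr3:50443614-50443693, - strand, bases 80 to 1 before the start: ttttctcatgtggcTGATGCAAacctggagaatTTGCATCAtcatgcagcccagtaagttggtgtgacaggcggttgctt
Trib3, chr2:152344027-152344056, - strand, bases 5 to 34 after the start: tagctcaggtTTACATCAgccgggcgggga

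The Pck2 and Trib3 matches spell the same 8 letters, in reverse orientation. Slc7a11 held 2 matches, 1 on each strand, before a start that lies inside the gene's annotated span (chr3:50364936-50499087). Such a match is a description of the sequence and no proof of a bound site, and a window without one says only that these letters are not in it. Among the other gene lists, the letters were in 10 of 23 other ATF4 targets and stress regulators (43.5%), 5 of 13 tRNA synthetase genes (38.5%) and 3 of 10 amino acid transporter genes. They were in 0 of 10 serine and one-carbon genes and 0 of 9 genes of the eIF2alpha kinase list. These lists share members with one another, so the counts overlap.

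Pck2 was read by 2 probe sets. The brighter one gave signals of 211.0 with IFN-gamma and calcitriol, 133.7 with IFN-gamma, 194.4 with calcitriol and 16.9 untreated on the Vdr-/- arrays. On the wild-type arrays it gave 21.0 with IFN-gamma and calcitriol, 317.6 with IFN-gamma, 17.5 with calcitriol and 216.4 untreated. Thus 3 arrays were near the floor, both wild-type calcitriol arrays and the array labelled Vdr-/- untreated, and the other 5 were at 133.7 or more. The array labelled Vdr-/- untreated and the wild-type calcitriol array are also those with the highest Gapdh ratios. The wild-type array with both agents, which was as low, had a ratio of 1.65. The part of RNA truncation in these levels was not tested.

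The dimmer Pck2 probe set did not show this pattern. It gave 60.7, 19.9, 7.0 and 58.0 on the Vdr-/- arrays with both agents, with IFN-gamma, with calcitriol and untreated. Its wild-type signals were 10.1, 15.6, 18.4 and 76.1 in the same order. Its correlation with the brighter probe set over the 8 arrays was r = 0.085 in log2 signal. The account of Pck2 therefore rests on the brighter probe set.

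**Figure D1:**
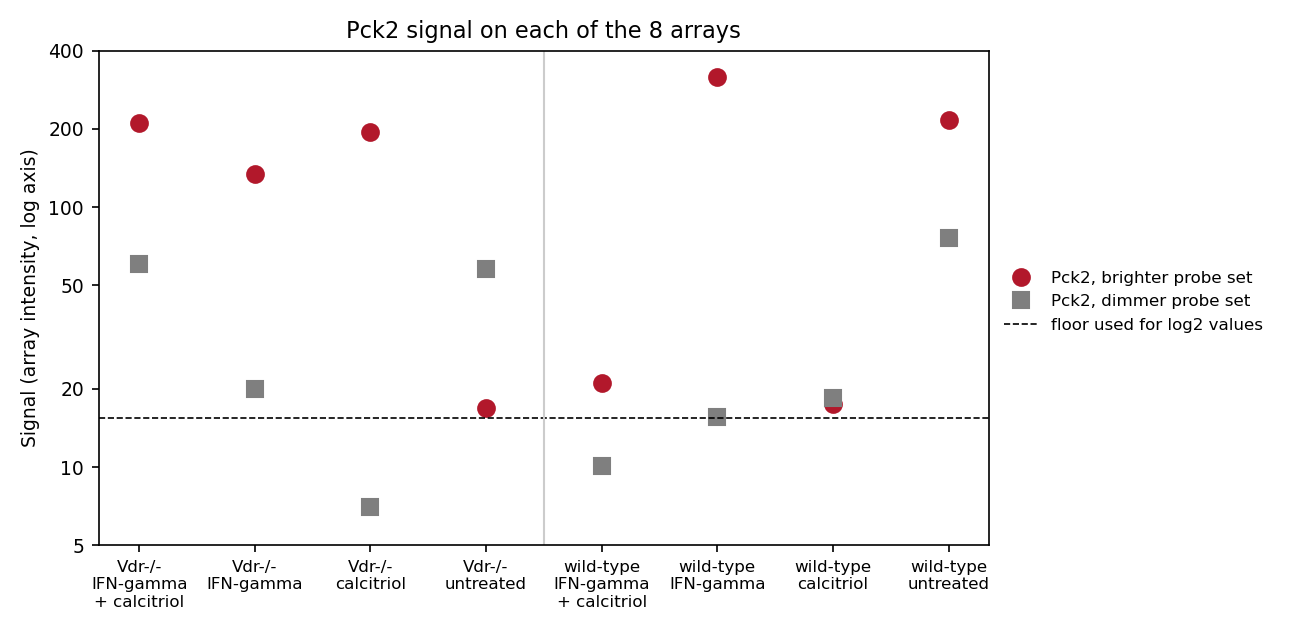
Signal of both Pck2 probe sets on each array (log axis), Vdr-/- arrays on the left and wild-type arrays on the right, 1 point per array; the dashed line is the floor of 15.5. The brighter probe set is near the floor on 3 arrays and at 133.7 or more on the other 5, and the dimmer one follows another order.

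The Pck2 signal was lower with calcitriol in both wild-type pairs of arrays, which is the contrast that chose it. With IFN-gamma the signals were 21.0 with calcitriol and 317.6 without. Without IFN-gamma they were 17.5 with calcitriol and 216.4 without. The mean log2 change over the 2 pairs was -3.77. Both calcitriol signals are near the floor, so the size depends on it, and with a floor of 40.1 the change was -2.71. The pair with IFN-gamma holds neither of the 2 arrays with the highest Gapdh ratios nor an untreated array, and its change was -3.92. With the 2 untreated labels exchanged, an alternative added after seeing the data, the pair without IFN-gamma had a change of 0.05 and the mean was -1.93.

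The other genes did not share this change as a group. Of the 8 other genes with a tested probe set, 1 was lower with calcitriol in both wild-type pairs (Ddit3), 2 were higher in both (Asns and Psat1), 4 moved in opposite directions and Slc7a11 was at the floor on both arrays of a pair. Their median log2 change was 0.0025, against 0.046 over all 18058 tested probe sets. Over all tested probe sets, 4131 were lower in both pairs and 4832 higher. By groups that do not overlap, 1 of the 16 member probe sets was lower (Pck2 itself) beside 16.6% of all tested probe sets. In the other direction 6 were higher, beside 19.8%. Psat1 is among these 6 and passed the filter only through calcitriol arrays.

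Ddit3 encodes CHOP, a transcription factor induced in prolonged stress. Its wild-type signals were 284.2 with calcitriol and 403.0 without it on IFN-gamma arrays, and 161.4 with calcitriol and 279.7 untreated. The calcitriol arrays and the others overlapped, and the mean log2 change was -0.65. Asns, asparagine synthetase, had 70.8 with calcitriol and 16.1 without it on wild-type IFN-gamma arrays, and 133.1 with calcitriol and 64.0 untreated. Its calcitriol arrays were both above the other 2, with a mean log2 change of 1.60. The second Asns probe set gave 60.8 with calcitriol and 27.5 without it under IFN-gamma, but 74.6 with calcitriol and 80.7 untreated, so it was higher in the first pair alone. Psat1, phosphoserine aminotransferase of serine synthesis, had 55.4 with calcitriol and 16.9 without it under IFN-gamma, and 84.4 with calcitriol and 28.1 untreated (mean log2 change 1.65). Its calcitriol arrays also stood above the other 2. Both Psat1 probe sets passed the filter only through calcitriol arrays, so their inclusion favoured such a rise. The second Psat1 probe set gave 67.8 with calcitriol and 22.5 without it under IFN-gamma but 9.8 with calcitriol and 43.7 untreated, so the 2 probe sets disagree.

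Atf4 itself was high on most arrays. Its brightest probe set gave 544.4 with both agents, 670.2 with IFN-gamma, 658.6 with calcitriol and 404.0 untreated in Vdr-/- cells. In wild-type cells it gave 790.4 with both agents, 665.6 with IFN-gamma, 224.4 with calcitriol and 737.6 untreated. Its 2 lowest arrays were the wild-type calcitriol array and the array labelled Vdr-/- untreated, those with the highest Gapdh ratios. The wild-type array with both agents, where Pck2 was near the floor, had the highest Atf4 signal of the 8. The dimmer Atf4 probe sets followed other orders, and 1 of them was highest on the wild-type calcitriol array at 229.7.

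In Vdr-/- cells, Pck2 was higher with calcitriol in both pairs, in the direction opposite to wild type. The signals were 211.0 with calcitriol and 133.7 without it under IFN-gamma, and 194.4 with calcitriol and 16.9 untreated. The calcitriol arrays were both above the other 2. The mean log2 change was 2.09 ± 0.74 (SE), with adjusted p = 0.496 by limma (Benjamini-Hochberg over all tested probe sets, spread taken from the interplay of the treatments, 2 residual degrees of freedom). It was not called. Both genotypes share this spread, so the SE and p also draw on the wild-type arrays by which Pck2 was chosen. Without the 2 untreated arrays the change was 0.69. With those 2 labels exchanged, Pck2 was slightly lower with calcitriol in the pair without IFN-gamma (-0.15) and the mean was 0.25. No member probe set was called (0 of 16, lowest adjusted p 0.4), where 0.194% of all tested probe sets were. An unadjusted p under 0.05 was seen for 2 of the 16, beside 1147 of all 18058 tested. Groups of arrays did not overlap for 3 of 16 member probe sets higher with calcitriol (Pck2, Ddit3 and Psat1), beside 15.1% of all tested. For 4 lower with calcitriol they did not overlap either, beside 20.5%. Psat1 passed the filter only through calcitriol arrays, so its inclusion favoured such a rise.

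Ddit3 gave 195.3 with calcitriol and 105.7 without it in Vdr-/- cells under IFN-gamma, and 319.3 with calcitriol and 87.2 untreated. Both calcitriol arrays were above the other 2, with a log2 change of 1.38 ± 0.45 (SE) and adjusted p = 0.4 (limma), not called. Atf5, an ATF4-related transcription factor, gave 39.1 with calcitriol and 89.0 without it under IFN-gamma, and 52.9 with calcitriol and 146.4 untreated. These groups did not overlap either, in the other direction, and the change of -1.33 ± 0.66 (SE) was not called (limma adjusted p = 0.795). Phgdh, the first enzyme of serine synthesis, gave 14.7 and 7.2 with calcitriol, both below the floor, against 19.4 and 129.8 without it. Its 4 probe sets that name it alone disagree with one another: on the array labelled Vdr-/- untreated they gave 129.8, 21.7, 63.3 and 5.9.

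**Figure D2:**
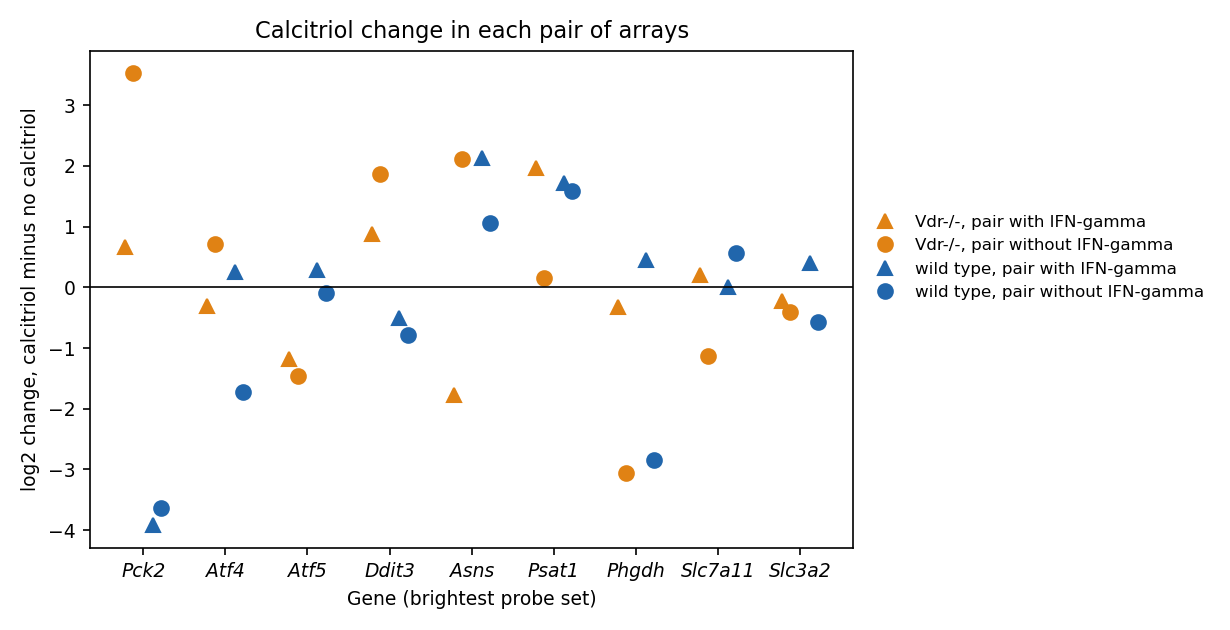
Log2 change with calcitriol (calcitriol minus no calcitriol) for each gene's brightest probe set, 1 point per pair of arrays, Vdr-/- pairs in orange left of wild-type pairs in blue. Pck2 and Ddit3 are above 0 in both Vdr-/- pairs and below 0 in both wild-type pairs, with the arrays as labelled.

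Across all 8 arrays the other genes did not follow Pck2. Pearson's r of log2 signal with the brighter Pck2 probe set was 0.579 for Atf4, 0.514 for Ddit3 and 0.102 for Slc3a2. It was negative for the other 5, between -0.578 (Psat1) and -0.207 (Phgdh). The median over the 8 genes was -0.253, against -0.073 over 8274 ranked genes. All r values are over arrays that differ in RNA quality, and its part in them was not tested. Without the 2 arrays with the highest Gapdh ratios r was -0.599 for Atf4, 0.094 for Ddit3, -0.603 for Slc3a2 and 0.315 for Slc7a11. For the other 4 genes it was then between -0.528 (Asns) and -0.144 (Atf5). The highest r belonged to Slc25a38 (0.990), a mitochondrial glycine carrier known from yeast and human, Josd2 (0.985), a deubiquitinase, Ikzf1 (0.961), a lymphoid transcription factor, Hal (0.955), histidine ammonia-lyase, and Ubxn1 (0.955). Slc25a38 gave 99.4, 82.2, 78.2 and 16.6 on the Vdr-/- arrays with both agents, with IFN-gamma, with calcitriol and untreated, and 6.5, 110.3, 17.1 and 87.0 on the wild-type arrays in that order. It was picked as the highest of 8274 genes by r over these same 8 arrays. That it was low on the same 3 arrays as Pck2 restates this choice. Its signals there were near or below the floor.

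**Figure D3:**
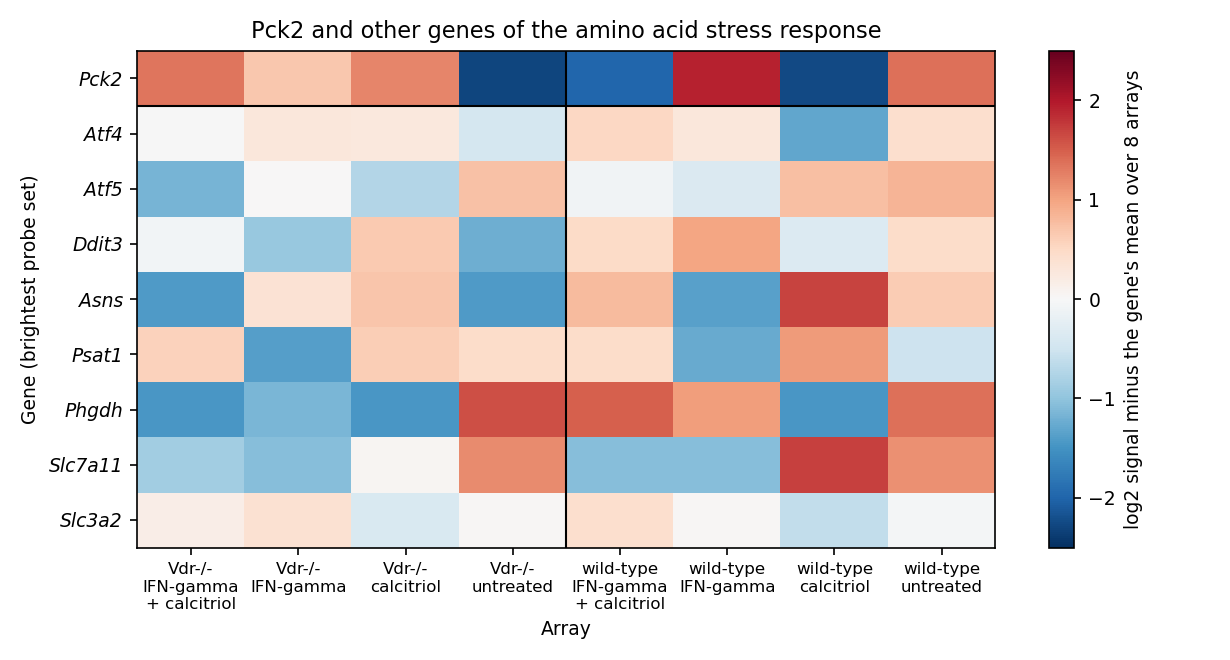
Log2 signal of each gene's brightest probe set minus its mean over the 8 arrays (red high, blue low), Vdr-/- arrays on the left and wild-type arrays on the right. Pck2 is far below its mean on 3 arrays, and no other row is below its mean on all of the same 3.

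IFN-gamma was compared over 4 pairs of arrays that share genotype and calcitriol. No member probe set was called (0 of 16), where 3.43% of all tested probe sets were, 2.15% higher and 1.27% lower. An unadjusted p under 0.05 was seen for 2 of the 16, beside 2244 of all 18058 tested, a like share. The lowest adjusted p was that of Slc7a11 (0.103). Summed signals of some marker lists moved with IFN-gamma. The summed stromal signals were 141.6 and 248.6 with IFN-gamma in Vdr-/- cells, with and without calcitriol, and 188.5 and 102.3 in wild-type cells, against 344.6 and 527.2, and 513.5 and 575.3, without IFN-gamma. The summed neutrophil signals were 223.1 to 293.1 with IFN-gamma, against 312.1 to 449.0 without it. Both sums were lower on all 4 IFN-gamma arrays. Of 6 stromal and 8 neutrophil markers, 1 each was above the floor on all arrays. The macrophage sum was also lower on all 4, at 35508.2 to 51927.1 with IFN-gamma and 53715.1 to 59143.3 without it. The lymphocyte and dendritic cell sums overlapped between arrays with and without IFN-gamma. The part of these marker changes in the IFN-gamma results was not tested.

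Slc7a11 encodes the cystine carrier subunit of the cystine/glutamate exchanger. With IFN-gamma its signals were 17.9 and 8.1 in Vdr-/- cells, with and without calcitriol, and 6.1 and 4.0 in wild-type cells. Without IFN-gamma they were 33.5 and 73.8 in Vdr-/- cells, and 105.8 and 71.4 in wild-type cells, in the same order. All 4 IFN-gamma arrays were below all 4 others, and 3 of them were at the floor. The log2 change was -2.03 ± 0.65 (SE; limma adjusted p = 0.103), lower in 4 of 4 pairs and understated by the floor. It was -3.00 with the lower floor (10th percentile), -0.78 with the higher (40th percentile), and between -2.41 and -1.61 in the fits that left out arrays. Groups of arrays did not overlap for this 1 of 16 member probe sets lower with IFN-gamma, beside 3.69% of all tested, and for 0 higher beside 3.11%. Slc7a11 passed the filter only through arrays without IFN-gamma, so its inclusion favoured such a difference. The macrophage, stromal and neutrophil sums were lower on the same 4 arrays.

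Slc3a2, the heavy chain that pairs with Slc7a11 and with other carriers, was the brightest member. Its signals with IFN-gamma were 2784.1 and 3263.9 in Vdr-/- cells, with and without calcitriol, and 3341.2 and 2543.2 in wild-type cells. Without IFN-gamma they were 1913.9 and 2550.1 in Vdr-/- cells, and 1636.1 and 2420.9 in wild-type cells. The groups overlapped slightly, and the change of 0.50 ± 0.22 (SE) was positive in 4 of 4 pairs but not called (limma adjusted p = 0.331). The 2 subunits of the exchanger thus had changes of opposite sign, neither past the threshold. The difference between them was not tested.

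For Pck2 the change with IFN-gamma was 0.98 ± 0.52 (SE; limma adjusted p = 0.475), positive in 4 of 4 pairs. The wild-type pairs hold the signals by which Pck2 was chosen, so this is no independent test of Pck2. Most of the change came from 1 pair, 133.7 with IFN-gamma and 16.9 on the array labelled Vdr-/- untreated. Without the 2 arrays with the highest Gapdh ratios the change was -0.81 in a fit with additive terms. The pairs that hold neither of those arrays gave 0.12 in Vdr-/- cells with calcitriol and 0.55 in wild-type cells without it. Atf4 had 0.53 and Ddit3 0.23, and both also turned negative without those 2 arrays (-0.07 and -0.44). Atf5 had -0.80, Asns -0.81 and Psat1 -0.80, and Phgdh -0.03, none called (limma adjusted p = 0.523, 0.712, 0.681 and 0.995). Trib3, a pseudokinase induced by CHOP and ATF4, was not tested. Its brighter probe set was between 3.7 and 41.4 on all 8 arrays, and its dimmer one between 5.8 and 23.6.

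By genotype, 0 of 16 member probe sets were called and 0 had groups that did not overlap, where 0% of all tested were called and 0.964% higher and 1.4% lower did not overlap. The lowest adjusted p was 0.999 by limma. For Pck2 the 4 pairs went opposite ways. Vdr-/- was higher with both agents (211.0 against 21.0 in wild type) and with calcitriol (194.4 against 17.5). It was lower with IFN-gamma (133.7 against 317.6) and untreated (16.9 against 216.4). The wild-type signals of all 4 pairs are those by which Pck2 was chosen, so these directions are a description. The same signals enter the genotype test of Pck2 and the test of its IFN-gamma difference, which are therefore no independent tests. The difference of the IFN-gamma effect between genotypes was called for 0 of 16 member probe sets and 0% of all tested (limma, lowest member adjusted p 0.996).

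Other genes of the pathway were counted from lists of related genes. With IFN-gamma, serine and one-carbon synthesis had 0 of 8 tested genes called and amino acid transport 0 of 13, beside 3.43% of all tested probe sets. The largest changes outside the members were in Shmt1 (-1.18), serine hydroxymethyltransferase, and Slc1a4 (-1.06), a neutral amino acid transporter. Without the 2 arrays with the highest Gapdh ratios they were -0.29 and -0.65, and without the wild-type calcitriol pair Shmt1 was -0.52. Of 10 genes of the eIF2alpha kinase and eIF2B list 0 were called, with Eif2ak2 at 0.77 and Eif2ak1 at 0.76, and at 0.30 and -0.0053 without those 2 arrays. The medians of these lists were -0.13, 0.27 and 0.08, against -0.08 over all tested probe sets.

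Among 18 cytosolic aminoacyl-tRNA synthetases, which charge tRNAs with amino acids, 1 rose, beside 2.15% of all tested probe sets. This was Wars. This enzyme charges tryptophan and is a known IFN-gamma target. Its signals with IFN-gamma were 1251.0 and 1181.5 in Vdr-/- cells, with and without calcitriol, and 909.1 and 923.6 in wild-type cells. Without IFN-gamma they were 131.7 and 150.3 in Vdr-/- cells, and 122.3 and 133.8 in wild-type cells. The groups lay far apart, with a change of 2.98 ± 0.25 (SE; limma adjusted p = 9.3e-09). The list's median was 0.19.

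Of 20 tested other ATF4 targets and stress regulators, 1 rose, beside 2.15% of all tested probe sets. This was Jdp2, an AP-1 family repressor. Its signals with IFN-gamma were 201.8 and 196.9 in Vdr-/- cells, with and without calcitriol, and 1829.0 and 356.7 in wild-type cells, against 30.0 and 161.4, and 171.5 and 157.0, without it. The groups did not overlap, and the change was 1.91 ± 0.39 (SE; limma adjusted p = 0.0039). The wild-type array with both agents was far above the rest, and the call was lost without any of the 4 pairs. The list's median was -0.20.

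Of 18 endoplasmic reticulum chaperone and unfolded protein response genes, 6 rose with IFN-gamma and 0 fell. Over all tested probe sets 2.15% rose and 1.27% fell. The median was 0.86, against -0.08 over all tested probe sets. Pdia3, a disulfide isomerase of the antigen-loading complex, had signals with IFN-gamma of 2149.8 and 3014.9 in Vdr-/- cells, with and without calcitriol, and 3463.8 and 2541.2 in wild-type cells, against 1763.1 and 743.2, and 292.4 and 1521.5, without it. The groups did not overlap, with a change of 1.65 ± 0.33 (SE; limma adjusted p = 0.0031). It was 1.02 without the wild-type calcitriol pair, which holds the signal of 292.4, and 0.75 without the 2 arrays with the highest Gapdh ratios, and in neither case was it called. Creld2 rose by 1.48, and Manf, Sdf2l1, Hsp90b1 and Calr, named after their values were seen, by 1.35, 1.06, 0.97 and 0.86. Without the 2 arrays with the highest Gapdh ratios, both of them without IFN-gamma, 0 of the 18 were called, 16 were above 0 and the median was 0.72. Without the 2 untreated arrays 0 were called, 14 were above 0 and the median was 0.77. With 1 pair left out, 5 were called without the Vdr-/- calcitriol pair and 0 without any 1 of the others. The macrophage, stromal and neutrophil sums were lower on the IFN-gamma arrays. The part of these sums and of RNA truncation in the calls was not tested.

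Among 10 genes of phosphoenolpyruvate and pyruvate metabolism 1 rose, beside 2.15% of all tested probe sets. This was Pkm, pyruvate kinase, with a change of 1.26 ± 0.34 (SE, limma adjusted p = 0.038). That call was lost in 13 of 14 alternatives, and the change without the 2 arrays with the highest Gapdh ratios was 0.25. Of 10 NRF2 targets, which answer oxidative stress and include Slc7a11, 1 fell, beside 1.27% of all tested probe sets. This was Srxn1, sulfiredoxin. Its signals with IFN-gamma were 181.3 and 214.4 in Vdr-/- cells, with and without calcitriol, and 56.3 and 167.2 in wild-type cells, against 378.1 and 294.5, and 293.3 and 503.0, without it. The groups did not overlap, and the change was -1.37 ± 0.33 (SE; limma adjusted p = 0.014). The call was lost with any 1 of the 4 pairs left out (limma adjusted p from 0.066 to 0.322). The macrophage, stromal and neutrophil sums were also lower on the IFN-gamma arrays. The list's median was -0.57. For genotype, calcitriol in Vdr-/- and the difference of the IFN-gamma effect, 0 genes of any list were called. Over all tested probe sets 0%, 0.194% and 0% were.

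**Figure D4:**
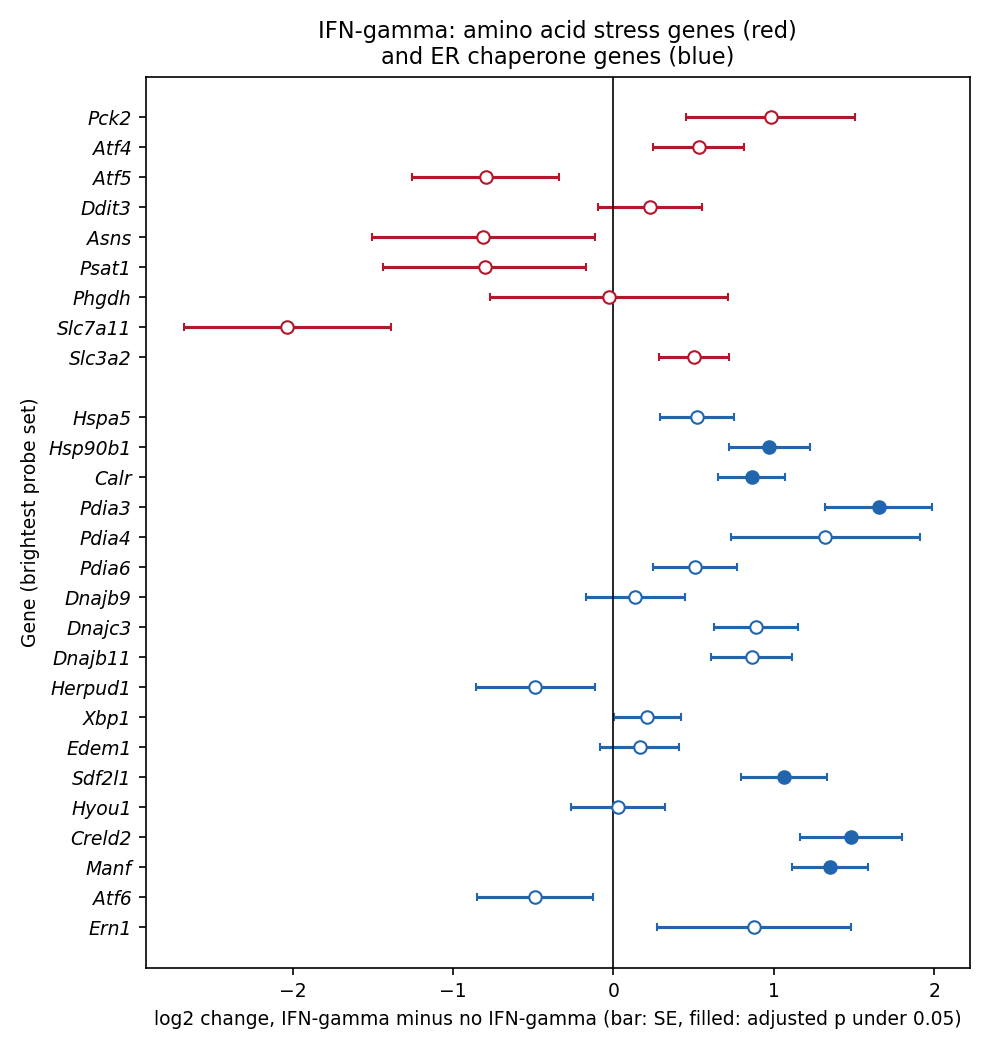
Log2 change with IFN-gamma (IFN-gamma minus no IFN-gamma, over 4 pairs of arrays) with its SE, for the amino acid stress genes (red) and endoplasmic reticulum chaperone genes (blue); filled points had an adjusted p under 0.05. No red point is filled, and 6 of the 18 blue points are.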

How the data were processed

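Total RNA of 8 macrophage cultures was measured on 1-colour Affymetrix arrays. The authors deposited an intensity signal per probe set, on a linear scale, and every array had a 2% trimmed mean of 150.07 to 150.08. The sources used here do not give the software, the scaling or detection calls. Precision is limited by signal over background, with 15.55% of tested values at the floor, and by the number of arrays.

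Controls (64) were set aside. Signals were raised to at least 15.5, the pooled 25th percentile, and put on a log2 scale, and the 18058 probe sets whose highest signal reached 59.1 were tested. The platform annotation named 1 gene for 20380 probe sets, several for 691 and none for 1555. The brightest probe set stood for a gene.

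Tests used limma 3.58.1 in R 4.3.3 (empirical Bayes, intensity trend, two-sided, Benjamini-Hochberg over all 18058 at 0.05). IFN-gamma and genotype were blocked on 4 pairs of arrays, which left 3 residual degrees of freedom. One model with both treatments within each genotype, with 2 residual degrees of freedom, gave calcitriol in Vdr-/- and the genotype difference of the IFN-gamma change. The fits were tested on simulated data. Alternatives were another normalization, floor, filter, spread or block, and arrays left out. Fits without the arrays of highest Gapdh ratio or without the untreated arrays used additive terms, not pair blocks or treatments within each genotype. Exchanging the labels of the untreated arrays was added after seeing the data.

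The members and lists were chosen with earlier results of these data known. Named were all members, the 5 genes most like Pck2 over the arrays (at most 2 arrays at the floor), up to 2 rises and 2 falls among the called genes of each list, or up to 2 largest changes where none was called, and Vdr. Promoter windows came from RefSeq (GRCm38.p6), and 10 of 10 members had one. Figures used Python 3.11.15 and matplotlib 3.10.9.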

Additional observations from a re-analysis of the deposited data

Results flagged for a closer look

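Pck2 and Ddit3 were higher with calcitriol in both Vdr-/- pairs of arrays and lower in both wild-type pairs, with the arrays as labelled. For Pck2 the log2 change was 0.66 in the Vdr-/- pair with IFN-gamma and 3.52 in the pair without it, against -3.92 and -3.63 in the wild-type pairs. The change in wild type minus that in Vdr-/- was -5.86 log2, and in the pairs with IFN-gamma alone it was -4.58. For Ddit3 the change was 0.89 with IFN-gamma and 1.87 without it in Vdr-/- cells, against -0.50 and -0.79 in wild type, a difference of -2.03 log2, and -1.39 in the pairs with IFN-gamma alone. The 2 untreated arrays, whose Vdr signals go against their labels, enter both pairs without IFN-gamma. With their labels exchanged the pairs without IFN-gamma gave -0.15 in Vdr-/- and 0.05 in wild type for Pck2, and 0.19 and 0.89 for Ddit3. The difference was then -2.19 for Pck2 and -0.35 for Ddit3, and higher signals in Vdr-/- with lower ones in wild type were then seen only in the pairs with IFN-gamma. These differences were not tested, since Pck2 was chosen from the wild-type contrast.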

How the results depend on the processing

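Signal near the floor limits Asns, Psat1, Phgdh, Slc7a11 and Trib3. No member probe set was called in any alternative run, for any tested comparison. With IFN-gamma, all probe sets called were 619 as reported, 80 without the filter on dim probe sets, 70 without the intensity trend, 402 without pair blocks, 394 with additive covariates and 99 to 420 with 1 pair left out. They were 53 without the 2 arrays of highest Gapdh ratio and 24 without the untreated arrays. Endoplasmic reticulum genes called were 6 as reported, and 0 without the filter or the trend (9 at an unadjusted p under 0.05 in each). They were 3 without blocks or with additive covariates. With 1 pair left out they were 5 without the Vdr-/- calcitriol pair and 0 without any 1 of the others. Without the 2 arrays of highest Gapdh ratio or without the untreated arrays they were 0 (9 and 6 unadjusted). Wars was called in 14 of 14 alternatives, Pdia3 and Creld2 in 7, Jdp2 in 5 and Srxn1 in 4.

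For calcitriol in Vdr-/-, limma called 35 probe sets as reported, 18 with quantile normalization, and 1 and 58 with floors at the 10th and 40th percentiles. It called 0 without the filter, with the stricter filter, without the trend, and without the high-ratio or the untreated arrays (1045, 599, 1017, 740 and 293 at an unadjusted p under 0.05). The wild-type calcitriol change of Pck2 was -2.71 with the higher floor and -1.93 with the untreated labels exchanged, where its difference between genotypes was -2.19.

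Some IFN-gamma changes turned sign. Phgdh was 0.50 with the lower floor, -1.02 to 0.88 with 1 pair left out (0.88 and 0.072 without the Vdr-/- and wild-type no-calcitriol pairs), 0.027 without the high-ratio arrays and 1.48 without the untreated arrays. In the additive fit without the high-ratio arrays Pck2 was -0.81, Atf4 -0.074, Ddit3 -0.44 and Eif2ak1 -0.0053. The Pck2 pairs that hold neither of those arrays gave 0.12 and 0.55. For calcitriol in Vdr-/-, Slc7a11 was 0.0023 with the lower floor. Without the high-ratio arrays Atf4 was -0.27 and Asns -1.74, and without the untreated arrays Asns was -1.47 and Phgdh 0.42. The cause was not tested.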

Other observations

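Cytosolic tRNA synthetase genes, several of them known ATF4 targets, had a median log2 change with calcitriol of 0.41 in Vdr-/- cells, against -0.08 over all tested probe sets. Of the 18 genes 0 were called by limma, beside 0.194% of all tested probe sets. An unadjusted p under 0.05 was seen for 8 of them, beside 1147 of all 18058 tested probe sets. The array labelled Vdr-/- untreated, which has the second-highest Gapdh ratio, held the lowest signal for 6 of the 18 (33.3%), against 12.0% of all tested probe sets. The Vdr-/- IFN-gamma array (ratio 3.06) held it for 5 (27.8%, against 12.0%), and the wild-type calcitriol array, with the highest ratio, for 2 (11.1%, against 14.3%). Kars, which charges lysine and was named after its values were seen, gave 199.4 with both agents, 100.3 with IFN-gamma, 174.2 with calcitriol and 11.9 untreated on the Vdr-/- arrays. On the wild-type arrays it gave 249.3, 255.8, 74.0 and 190.9 in the same order. The Vdr signals of the 2 untreated arrays go against their labels. With these labels exchanged, Kars in Vdr-/- cells without IFN-gamma would be 174.2 with calcitriol and 190.9 untreated. The list was not fitted with the labels exchanged. The part of RNA truncation in this pattern was not tested.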
